A study of Mus musculus with 34 samples.

Results

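The 4 Mef2 genes of the mouse, Mef2a, Mef2b, Mef2c and Mef2d, were followed through N2A mouse neuroblastoma cells exposed to 27 small molecules. Their members were all cassette-exon events listed for these genes, 37 of the 160750 exon events of the series, and the 4 gene levels. Mef2a had 15 exon events, Mef2c 11 and Mef2d 11, and Mef2b had 0. The first of them is a 21-nt microexon of Mef2d, because the luciferase reporters of the screen that found the compounds carry this exon, lengthened or shortened by 1 nt. The values below are of the endogenous Mef2d transcript, read from polyA RNA-seq.

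N2A cells were treated for 24 h in medium with 0.4% DMSO, and DMSO alone was the control, with 3 libraries lettered A, B and C. The HDAC inhibitors Vorinostat (SAHA), CI-994, BRD6688 and BRD4884 had 2 libraries each, described as biological replicates, and the other 23 compounds had 1 library each, so that there were 34 libraries. Of the 27 compounds, 17 were classed as activators and 10 as inhibitors of microexon splicing from the screen and from endogenous microexons. Doses ran from 250 nanomolar (A-443654) to 20 micromolar (BTB12021 and SPB00858), with 2.5 micromolar for Vorinostat, 5 micromolar for CI-994 and 10 micromolar for BRD6688 and BRD4884. The labels gave plate positions for the 23 single compounds, and their names, classes and doses came from the compound sheet of the study. N2A is 1 cell line. The compounds were chosen by their effect on the Mef2d reporter and on microexons, so the direction of the 21-nt exon by class is a description and was not tested.

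The MEF2 proteins are MADS-box transcription factors that bind DNA as dimers and are known for their roles in muscle differentiation and in activity-dependent gene control in neurons. Class IIa histone deacetylases bind them and hold their targets off, and calcium-regulated phosphatase and MAP kinase signals release or activate them. Beyond the DNA-binding part, the transcripts of Mef2a, Mef2c and Mef2d carry a choice between 2 alternative exons, known as alpha1 and alpha2, of which alpha2 of Mef2d is the muscle form. They also carry a short beta exon that adds an acidic stretch to the activation domain. The 21-nt exon of Mef2d and the 24-nt exons of Mef2a and Mef2c are these beta exons, and Srrm4 and Srrm3 are known to promote inclusion of neuronal microexons.

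The 3 beta exons are shown first, since most of the measurements concern how often they were joined to the exons beside them. The sequences are from the GENCODE vM21 transcripts on GRCm38. Each run holds the last 20 bases of the coding exon before, the microexon in capitals and the first 20 bases of the coding exon after it, and the last line joins the same exons of Mef2d without the microexon.
Mef2d, 21 nt, included: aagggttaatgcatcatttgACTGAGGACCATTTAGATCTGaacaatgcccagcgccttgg
Mef2a, 24 nt, included: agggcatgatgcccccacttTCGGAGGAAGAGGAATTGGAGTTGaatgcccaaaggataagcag
Mef2c, 24 nt, included: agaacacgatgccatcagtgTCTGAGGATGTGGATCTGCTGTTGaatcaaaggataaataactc
Mef2d, skipped: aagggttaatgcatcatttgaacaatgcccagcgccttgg

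The Mef2d microexon is at chr3:88161781-88161801 (GRCm38, plus strand), between coding exons of 191 and 130 nt, and 1 of the 4 coding transcripts of the gene contained it. The Mef2a microexon is at chr7:67244521-67244544 (minus strand), in 2 of 6 coding transcripts, and that of Mef2c at chr13:83654598-83654621 (plus strand), in 8 of 27. All 3 lengths are multiples of 3, so inclusion or skipping keeps the reading frame. The Mef2a and Mef2c exons shared 17 of 24 aligned bases (70.8%), while the Mef2d exon shared 54.2% with that of Mef2a and 55.6% with that of Mef2c. In the splicing table, which uses mm9, the Mef2d event is at chr3:87965703-87965723 and the Mef2a event at chr7:74389407-74389430.

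In DMSO the 21-nt Mef2d exon was included in most transcripts. Its percent spliced in (PSI), the share of junction reads that include the exon, was 89.5, 88.7 and 88.7 in the 3 DMSO libraries (mean 89.0 ± 0.5, SD, n = 3). These values rested on 455, 350 and 211 corrected junction reads, and 1 library with 200 reads and a PSI of 54.6 has a 95% Wilson interval of 47.6 to 61.3. Intervals cover counting error only. Depth over the 34 libraries ran from 33489970 to 75978445 corrected junction reads, summed over all exon events (median 49743250).

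Inclusion was lowest in the T5985871 library, at 54.6 PSI, a change of -34.4 from the DMSO mean. It was 69.4 in T5758020, 69.9 in T5635931 and 70 in AW00693 (changes of -19.5, -19.1 and -19), and 77.1 in MK-1775, an inhibitor of the WEE1 kinase (-11.9). The 3 values near 70 lay within each other's 95% intervals, and 54.6 and 77.1 lay outside the intervals of these 3. Inclusion was 82.6 in 5-azacytidine, 83.0 in SPB00858, 83.8 in T5963258 and 84.0 in JFD00822, all below the 3 DMSO libraries. The tenth compound of the inhibitor class, 7678804, was at 91.3 and so above them.

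All 17 compounds of the activator class lay above the DMSO libraries, between 89.7 and 97.0 PSI. The lowest were BTB12021 and Crenolanib, both at 89.7, BTB13120 at 90.2, RDR00572 at 90.3 and SCH-772984 at 90.6. NVP-AEW-541 was at 91.9 and BTBS00065 at 92.4. The 95% intervals of these 7 compounds and of 7678804 held the highest DMSO value. The HDAC inhibitors gave 93.8 and 94.1 (Vorinostat), 94.5 and 95.1 (BRD6688), 97.1 and 94.2 (CI-994) and 96.4 and 96.1 (BRD4884), with no overlap with DMSO in any of the 8 libraries. RH01954 was at 94.2, S02045 at 95.2, GNF-5837 at 95.5, A-443654 at 95.7, Trametinib at 96.3 and SEW06315, the highest, at 97.0.

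**Figure D1:**
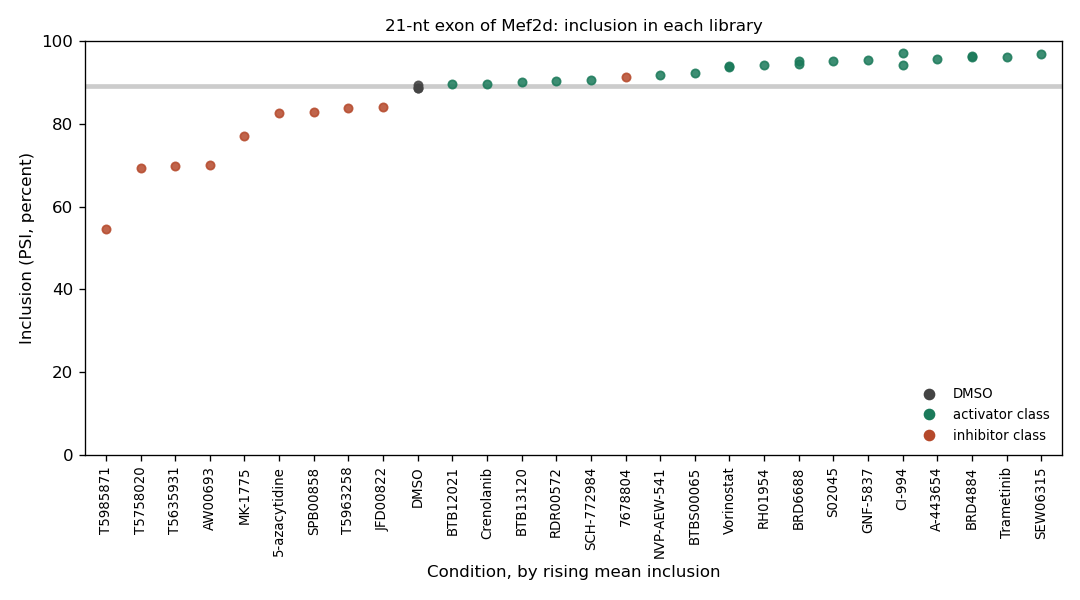
Inclusion of the 21-nt Mef2d exon (PSI, percent, vertical axis) in each of the 34 libraries, with the 28 conditions in order of mean inclusion and the grey band marking the range of the 3 DMSO libraries. 9 inhibitor-class compounds sit below the band, down to 54.6 PSI, and 18 compounds sit above it, up to 97.0 PSI.

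By the call rule of the study, a change of at least 10 PSI with a posterior probability above 0.95, the exon was called lower in 5 compounds (T5985871, T5758020, T5635931, AW00693 and MK-1775) and higher in 0. Over all exons and compounds, 0.635% of pairs were called higher and 1.01% lower. Among exons of up to 27 nt, the shares were 5.83% and 4.94%. From a DMSO mean of 89.0 a rise of 10 PSI was nearly out of reach, so the rule could hardly call an increase. The exon lay above the DMSO range in 18 compounds and below it in 9. Over all exons with 5 to 95 PSI in any condition, 17.5% of pairs lay above that range and 26.5% below it.

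Against the spread between replicate libraries, fitted with limma on the logit of inclusion, the exon fell in 1 compound, T5985871. The change was -2.73 on the log2 odds scale (SE 0.54, Benjamini-Hochberg adjusted p = 0.0392, over all exons tested). Over all exons and compounds this fit called 0.0483% of pairs higher and 0.357% lower. At an unadjusted p under 0.05 it had 8 compounds higher and 5 lower. No share over all exons or genes is given for unadjusted p-values, so such counts, here and below, have no background. With PSI itself in place of the logit, 7 compounds were higher and 8 lower: SEW06315 by 8.0 PSI (SE 1.1, limma adjusted p = 0.00945), BRD4884 and Trametinib by 7.3, CI-994 and A-443654 by 6.7, GNF-5837 by 6.5 and S02045 by 6.3. The lower compounds on that scale were the 5 named above together with 5-azacytidine, SPB00858 and JFD00822. Single libraries were assumed to vary like the replicated groups, and the call for T5985871 on the logit scale was lost when any 1 of 8 libraries was left out: DMSO A or B, or either library of Vorinostat, BRD6688 or BRD4884 (limma adjusted p from 0.054 to 0.0924).

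Many other microexons varied with the Mef2d exon over the conditions. Over 509 microexons of up to 27 nt measured in at least 25 of the 28 conditions, the median Pearson r with the Mef2d exon was 0.34, 401 had an r above 0 and 120 an r of at least 0.7. The most alike were a 21-nt exon of Senp6, a SUMO protease gene (r = 0.96, 52.9 to 97.7 PSI), a 27-nt exon of Git1, an ARF GTPase-activating protein (0.96, 57.5 to 96.1 PSI), and a second 21-nt event of Senp6 (0.95). A 4-nt exon of Asap2 (0.95, 36.4 to 97.7 PSI) and a 9-nt exon of Ap1g1, an adaptor subunit of clathrin coats (0.95, 69.8 to 99.4 PSI), came next. Each point is the mean of a condition, and all exons were read from the same libraries. Within the 10 inhibitors the r of these 5 exons was 0.92 to 0.96. Within the 17 activators it was 0.73 for the first Senp6 exon, 0.37 for Git1, 0.35 for the second Senp6 event, 0.06 for Ap1g1 and 0.02 for Asap2. By Spearman's rho, 1 of these 5 was still among the top 5, the first Senp6 exon, with Asap2 at place 44 and Ap1g1 at 78.

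The lowest r values were -0.74 for a 7-nt exon of 2310021P13Rik, -0.69 for a 3-nt exon of Ruvbl2, -0.65 for a 3-nt exon of Zfp524 and a 12-nt exon of Dennd1a, and -0.61 for a 7-nt exon of Iqgap2. These exons were seldom included, with highest values of 0.9 to 16.9 PSI in any condition. Within the activators alone the first 4 had an r above 0, and 1 of the 5 was among the lowest 5 by Spearman's rho.

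The 24-nt beta exon of Mef2a was mostly skipped in DMSO, at 17.6, 12.4 and 15 PSI (mean 15 ± 2.6, SD, n = 3). It rose under all 4 HDAC inhibitors by the call rule. BRD4884 gave 28.9 and 35.5 PSI (17.2 above the DMSO mean), CI-994 gave 29.1 and 30.5 (14.8 above), Vorinostat gave 27.7 and 28 (12.8 above) and BRD6688 gave 28.9 and 22 (10.4 above). Trametinib, a MEK inhibitor, and GNF-5837, an inhibitor of Trk receptor kinases, each gave 25.4 PSI, 10.4 above DMSO. The 8 HDAC inhibitor libraries and these 2 lay above all DMSO libraries.

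NVP-AEW-541 (23.7 PSI), BTB13120 (21.9), BTBS00065 (21.4), JFD00822 (20.3), Crenolanib (19.2) and 7678804 (18.4) were also above the DMSO range without being called. The lowest values were 9.8 in T5635931, 10.1 in T5758020, 10.3 in T5985871 and 11.4 in BTB12021. In all, the exon lay above the DMSO range in 12 compounds, below it in 8 and within it in 7. The calls were 6 higher and 0 lower.

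**Figure D2:**
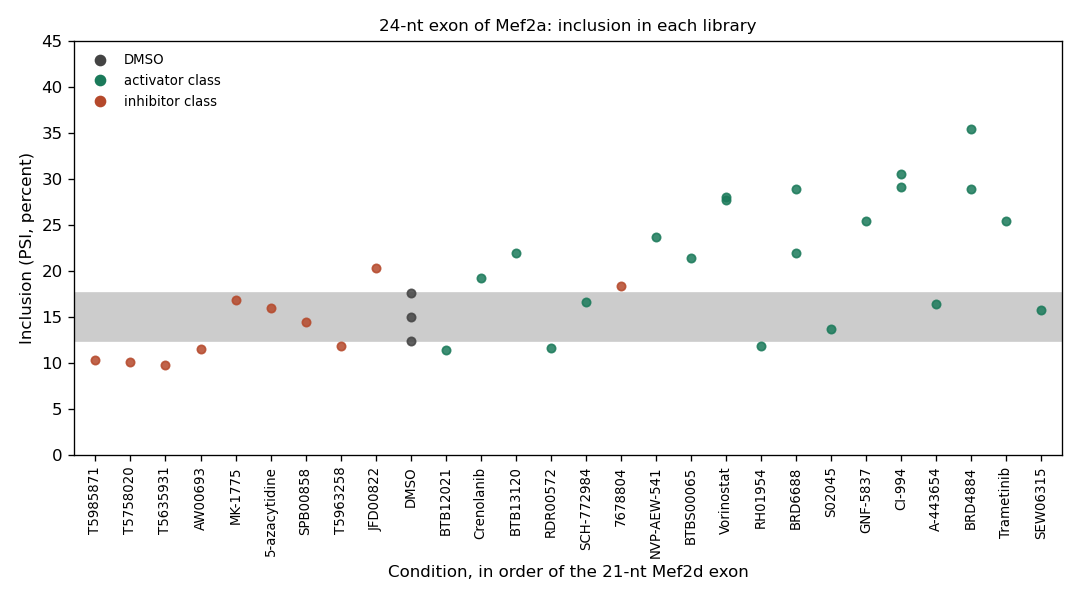
Inclusion of the 24-nt Mef2a exon (PSI, percent, vertical axis) in each library, with conditions in the order of the 21-nt Mef2d exon and the grey band marking the range of the 3 DMSO libraries. The HDAC inhibitor libraries lie between 22 and 35.5 PSI, above the band, while SEW06315, highest for the Mef2d exon, lies inside it at 15.8 PSI.

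The order of the conditions differed between the beta exons of Mef2d and Mef2a. Their r over 28 conditions was 0.59 (Spearman's rho 0.63), which placed the Mef2a exon 162nd of the 509 microexons. SEW06315 gave 97.0 PSI for the Mef2d exon and 15.8 for the Mef2a exon, and A-443654 gave 95.7 and 16.4, both inside the DMSO range of Mef2a. With limma on the logit scale the Mef2a exon had 0 adjusted calls, and at an unadjusted p under 0.05 the same 6 compounds were higher and 0 lower. The largest change on that scale was 1.43 in BRD4884 (SE 0.32, adjusted p = 0.245). Without DMSO B the calls for BRD6688, Trametinib and GNF-5837 fell to 9.1, 9.1 and 9.0 PSI above DMSO and were lost, and without the BRD6688 A library the change in BRD6688 was 7.0 PSI.

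The alpha exons form the other alternative region of both genes. In Mef2d the 138-nt alpha1 exon lies at chr3:88158034-88158171 and the 135-nt alpha2 exon at chr3:88158221-88158355 (GRCm38). They occur in 3 and 1 of the 4 coding transcripts, never both in 1. They are printed here, with the 132-nt exon of Mef2a, because all exon calls outside the beta exons fell in the alternative pairs of Mef2d and Mef2a.
Mef2d, 138 nt: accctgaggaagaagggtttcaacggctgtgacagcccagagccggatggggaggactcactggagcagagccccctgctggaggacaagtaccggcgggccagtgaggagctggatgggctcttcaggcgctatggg
Mef2d, 135 nt: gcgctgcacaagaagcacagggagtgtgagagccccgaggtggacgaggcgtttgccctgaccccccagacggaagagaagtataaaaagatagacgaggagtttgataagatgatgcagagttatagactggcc
Mef2a, 132 nt: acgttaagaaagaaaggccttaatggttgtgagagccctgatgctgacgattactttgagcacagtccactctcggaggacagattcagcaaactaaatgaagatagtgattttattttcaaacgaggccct

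The 2 alternatives of Mef2d shared 56.1% of aligned bases with each other, and the 138-nt exon of Mef2d shared 57.8% with the 132-nt exon of Mef2a. The latter lies at chr7:67268269-67268400, on the minus strand.

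The 138-nt exon of Mef2d was at 62.0, 63.4 and 63.7 PSI in DMSO (mean 63.0 ± 0.9, SD, n = 3), and compounds moved it both ways. It was called higher in GNF-5837 (87.4 PSI, 24.4 above the DMSO mean), Crenolanib, an inhibitor of FLT3 and PDGF receptors (74.9), and BTB12021 (74.8). It was called lower in Vorinostat (42.1 and 41.5, a change of -21.2), SPB00858 (43.1, a change of -19.9), 5-azacytidine (49.5), JFD00822 (50.1) and MK-1775 (52.6). Vorinostat, CI-994 (55.6 and 52.5), BRD6688 (mean 56.1), BRD4884 (mean 59.8), BTB13120 (54.4) and 7678804 (55.7) lay below the DMSO range for this exon and above it for both beta exons.

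Over the 27 compounds, the 138-nt exon lay above the DMSO range in 13, below it in 13 and within it in 1. With limma on the logit scale it had 0 adjusted calls, and 1 compound higher and 2 lower at an unadjusted p under 0.05. The change in GNF-5837 was 2.01 on the log2 odds scale (SE 0.40, adjusted p = 0.1) and that in Vorinostat -1.24 (SE 0.32, adjusted p = 0.105).

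The 135-nt exon of Mef2d, the muscle form, was rare, at 3.0, 4.2 and 4.7 PSI in DMSO (mean 4.0 ± 0.9). No compound changed it by 10 PSI. It was below the DMSO range in 15 of the 16 activator-class compounds tested, with the lowest value of 0.5 PSI in GNF-5837, and above it in SEW06315 (6.6 PSI). None of the 7 inhibitor-class compounds tested lay below that range and 4 lay above it, up to 7.4 PSI in T5985871. Over all exons with 5 to 95 PSI in any condition, 17.5% of pairs lay above the DMSO range and 26.5% below it. Shares by class were not computed. The 4 compounds that failed the filter were on both sides, with the inhibitor-class 7678804 at 0.2 PSI, JFD00822 at 3.2 and AW00693 at 8.2, and the activator-class Crenolanib at 0.2. With limma on the logit scale the 135-nt exon had 0 adjusted calls, and 1 compound higher and 12 lower at an unadjusted p under 0.05. The unadjusted counts have no share of all exons beside them. The change in GNF-5837 was -2.42 (SE 0.38, adjusted p = 0.0509). The values of both exons did not add up to 100 (63.0 and 4.0 in DMSO), and which reads count as exclusion for each is not given in the sources used here.

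**Figure D3:**
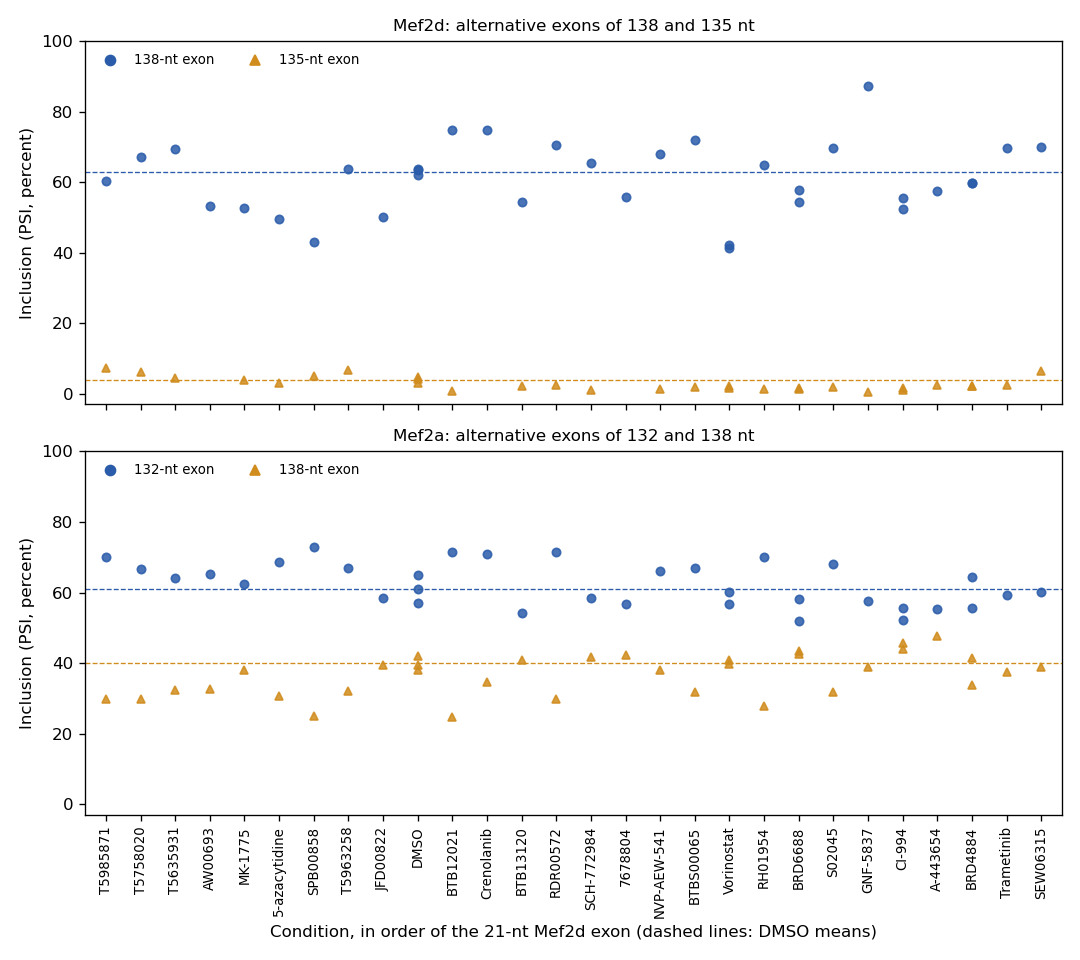
Inclusion (PSI, percent, vertical axes) of the alternative exons of Mef2d (138 and 135 nt, top) and Mef2a (132 and 138 nt, bottom) in each library that passed the filters, with dashed lines at the DMSO means. For Mef2d, GNF-5837 stands highest at 87.4 PSI and Vorinostat lowest at 42.1 and 41.5 PSI for the 138-nt exon, while the 135-nt exon stays at or below 7.4 PSI.

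In Mef2a both alternatives were common. The 132-nt exon was at 57.1, 65.0 and 61.1 PSI in DMSO and the 138-nt exon at 42.1, 38.1 and 39.6. The 138-nt exon was called lower in 6 compounds: BTB12021 (24.6 PSI, a change of -15.3 from the DMSO mean), SPB00858 (25, -14.9), RH01954 (27.8, -12.1), T5758020 (29.8), RDR00572 (29.9) and T5985871 (29.9). The 132-nt exon was called higher in BTB12021 (71.5), RDR00572 (71.4) and SPB00858 (72.8), which were among these 6. Of the 6 compounds, 3 were of the activator class and 3 of the inhibitor class.

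The 3 calls of the 132-nt exon and those of the 138-nt exon in T5758020, RDR00572 and T5985871 were lost without DMSO A, which left changes of 8.3 to 9.8 PSI and of -8.9 to -9.0 PSI. With limma on the logit scale the 132-nt exon had 0 calls, with 0 at an unadjusted p under 0.05, and the 138-nt exon had 0 calls, with 2 lower at an unadjusted p under 0.05. The highest value of the 138-nt exon was 47.7 PSI, in A-443654.

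Taking the Mef2 exons as a whole, 18 of the 37 events passed the coverage and balance filters in at least 17 of the 34 libraries, 13 of Mef2a and 5 of Mef2d. Of 460 exon and compound pairs tested, 12 were called higher (2.61%) and 16 lower (3.48%), beside 0.635% and 1.01% over all exons. Of the lower calls 5 were of the 21-nt Mef2d exon, and of the higher calls 6 were of the 24-nt Mef2a exon. The compounds were chosen by the Mef2d reporter and by microexons, so these shares are not independent of that choice. With 15 PSI as the minimum, 2 were higher and 7 lower. 11 of the 18 events had a PSI between 5 and 95 in some condition, and the other 7 stayed above 95. Besides the 6 events above, these were Mef2a exons of 20 nt (DMSO mean 2.3 PSI, 1.1 to 10.7 over compounds), 68 nt (4.0, 1.7 to 6.2), 188 nt (98.1, 93.5 to 100) and 204 nt (96.6, 88.6 to 99.1), and a Mef2d exon of 307 nt (97.9, 93.2 to 100). None of these 5 was called in any compound. The 204-nt exon, an early coding exon, lay below the DMSO range in 8 of 10 inhibitor-class compounds and in 4 of 17 activators. Over all exons with 5 to 95 PSI in any condition, 26.5% of pairs lay below that range, with both classes pooled.

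A further 8 events of Mef2a and Mef2d did not pass in that many libraries. 2 of them, Mef2a exons of 29 and 147 nt, had enough reads but failed the balance between their 2 junctions. In Mef2c no event passed in that many libraries, and its 24-nt beta exon had reads in 8 libraries, at most 16 reads, and never passed. A 136-nt exon of Mef2c passed in 4 libraries.

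Retained introns and alternative splice sites of the Mef2 genes changed in few compounds. Of 37 intron events 23 could be tested, and of 580 intron and compound pairs 8 were called higher and 2 lower, beside 0.464% and 0.188% over all introns. The intron that contains the 21-nt exon of Mef2d is at chr3:87965304-87966879 in mm9. Its retention value was 6.2% in DMSO and 22.6% in both CI-994 and S02045. These are shares of the few reads counted for this event, fewer than for the 21-nt exon, and not of all transcripts. Which reads count as spliced out for it is not given in the sources used here. The other 8 calls were in Mef2b. With at least 30 reads, in place of 15, none of these pairs had enough reads to be tested.

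Of 19 splice-site events 10 could be tested, and of 270 pairs 2 were called higher and 2 lower, beside 0.973% and 0.974% over all such sites. They were the 2 ends of 2 choices of donor site. In Mef2d, use of a longer form of the exon at chr3:87972174-87972380 (mm9) rose from 4.1 to 18.9 PSI under Trametinib. In Mef2a, use of a longer form at chr7:74494735-74494807 rose from 21.3 to 37.7 PSI under 7678804. The minimum of 30 reads was applied to introns only, so these calls have no such check.

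The amount of Mef2 transcript was measured per library from the reads that include any of a gene's exons, scaled to a total of 1000000 such reads (RPM), a scale on which genes are not compared with each other. Mef2a rose in 8 compounds, all of the activator class. From 109.9, 103.9 and 105.5 RPM in DMSO, it reached 208.8 and 227.2 under CI-994 (log2 ratio 1.03, SE 0.11, limma adjusted p = 1e-06) and 157.4 and 223.9 under Vorinostat (0.82, SE 0.11). It was 184.0 and 178.5 under BRD6688 (0.77), 146.4 and 144.6 under BRD4884 (0.45), 191.2 under BTB13120 (0.84), 174.8 under GNF-5837 (0.71), 153.2 under BTBS00065 (0.52) and 145.7 under Trametinib (0.45). All lay above the DMSO libraries, and Mef2a fell in 0 compounds. Over all 9951 genes tested and all compounds, 14% of pairs were higher and 12.5% lower. By compound, 37.9 to 40.2% of all genes were higher in each of the 4 HDAC inhibitors. The share was 27.4% in GNF-5837, 20.5% in BTBS00065, 15.6% in BTB13120 and, below the pooled share, 13.5% in Trametinib.

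Mef2d rose in 5 compounds and fell in 0. These were the 4 HDAC inhibitors, in which 37.9 to 40.2% of all genes were higher, and BTB13120, with 15.6%. From 91.9, 88.4 and 89.2 RPM in DMSO, it reached 204.2 and 201.8 under CI-994 (log2 ratio 1.17, SE 0.13, limma adjusted p = 1.29e-06), 180.1 and 207.4 under BRD6688 (1.10), 179.1 under BTB13120 (0.99), 104.0 and 157.2 under Vorinostat (0.51) and 119.4 and 109.2 under BRD4884 (0.34, limma adjusted p = 0.0321). The 2 Vorinostat libraries stood apart from each other in both genes. The lowest values were 76.2 under T5985871 and 76.3 under Trametinib and SCH-772984, below the DMSO libraries but not called (for T5985871 a log2 ratio of -0.24, SE 0.16, limma adjusted p = 0.238). At an unadjusted p under 0.05, Mef2a had 9 compounds higher and 0 lower, and Mef2d 5 and 0.

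**Figure D4:**
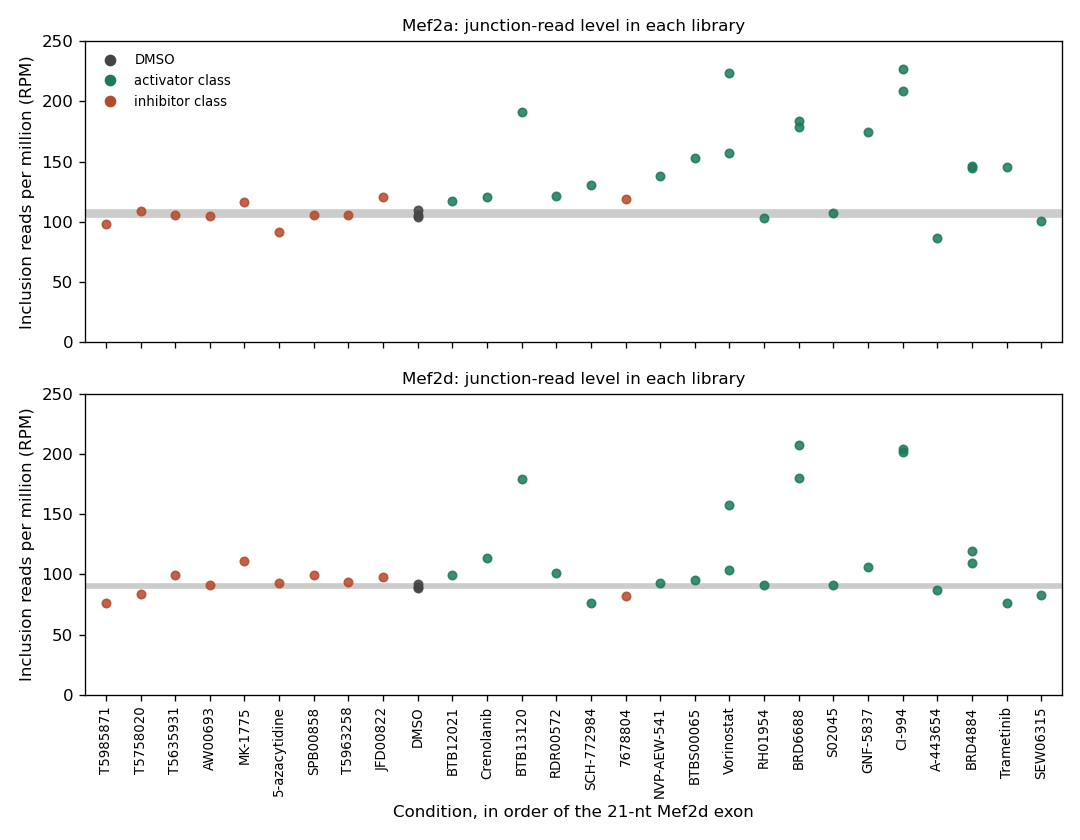
Inclusion reads in RPM (vertical axes) of Mef2a (top) and Mef2d (bottom) in each library, with conditions in the order of the 21-nt Mef2d exon and grey bands marking the DMSO range. CI-994 reaches 227.2 for Mef2a, BRD6688 reaches 207.4 for Mef2d, and the 2 Vorinostat libraries lie apart in both panels.

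The calls for Mef2d in BRD4884 and for Mef2a in Trametinib were lost without any 1 of the 3 DMSO libraries (limma adjusted p from 0.0554 to 0.0782). Without either Vorinostat library, 8 compounds were higher and 3 lower for Mef2d, and 2 were lower for Mef2a. These levels move also with the inclusion of a gene's alternative exons, and fewer cells with a transcript cannot be told apart from less transcript per cell. BRD6688 and BRD4884 were given at the same dose. Their Mef2d levels were 180.1 and 207.4 against 119.4 and 109.2 RPM, and this difference was not tested.

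Level and inclusion of Mef2d did not move together in every compound. BTB13120 raised the level of Mef2d with the 21-nt exon at 90.2 PSI, and Trametinib, with the exon at 96.3 PSI, had a Mef2d level of 76.3 RPM. T5985871, AW00693, T5635931 and T5758020, with the 4 lowest values of the exon, had Mef2d levels of 76.2, 90.8, 99.3 and 83.5 RPM. DMSO was at 88.4 to 91.9.

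Mef2c was near absent from DMSO-treated N2A cells. Its exons had 0 inclusion reads in all 3 DMSO libraries, which allows at most 0.0855 RPM in the shallowest of them. Under CI-994 the 2 libraries had 158 and 145 reads (3.4 and 3.0 RPM) and under Vorinostat 129 and 134 (4.1 and 2.8 RPM). BRD4884 had 79 and 93 reads and BRD6688 11 and 31. Against 3 reads in the shallowest DMSO library, the level was at least 34.7-fold higher in the CI-994 libraries, at least 33.3-fold in those of Vorinostat, at least 20.9-fold in those of BRD4884 and at least 2.31-fold in those of BRD6688. Among single libraries T5985871 had 33 reads (at least 9.13-fold higher), MK-1775 24 and T5758020 11. Mef2c was too low for the limma fit, so these folds have no test.

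Per length and per total of reads (RPKM, the authors' 1 merged value per condition), Mef2a was at 34.5 in DMSO and Mef2d at 30.5, ahead of Mef2b at 5.22 and Mef2c at 0.02. With 1 value per condition, the order of Mef2a and Mef2d has no replicate check. None of the 27 compounds moved Mef2a or Mef2d past 2-fold with the level above 5 RPKM. Mef2a ran from 29.3 (A-443654) to 58.9 (BTB13120) and Mef2d from 22 (T5985871) to 57 (BTB13120). Over all genes and compounds, 2.68% of pairs were past 2-fold higher and 3.86% lower. The median gene stood at -0.44 on the log2(RPKM + 0.5) scale in CI-994 and at -0.36 in Vorinostat, so on this scale the Mef2a ratio in CI-994 was 0.59, against 1.03 from junction reads. Centred on the median gene, Mef2a was past 2-fold higher in 1 compound and Mef2d in 2.

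Without this centring, only Mef2b of the 4 genes was past 2-fold with a level above 5 RPKM. It was past 2-fold higher in SEW06315 (21.1 RPKM, log2 ratio 1.92), BTB12021 (17.3, 1.64) and A-443654 (14.9, 1.43). It was past 2-fold lower in AW00693 (1.45 RPKM, -1.55), BRD6688 (1.58, -1.46), T5635931 (1.96), T5985871 (2.04) and BRD4884 (2.2). Centred on the median gene, 3 of these 5 were past 2-fold, without T5985871 and BRD4884. The Mef2b gene (chr8:70139711-70167488, GRCm38) overlaps Borcs8 on the same strand, so its level is uncertain. It had no exon events, so no junction level is given for it. Mef2c reached 1.75 RPKM in Vorinostat, 1.73 in CI-994, 1.01 in BRD4884 and 0.79 in T5635931, all under the 5 RPKM minimum. In T5635931 the exons of Mef2c had 4 inclusion reads.

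**Figure D5:**
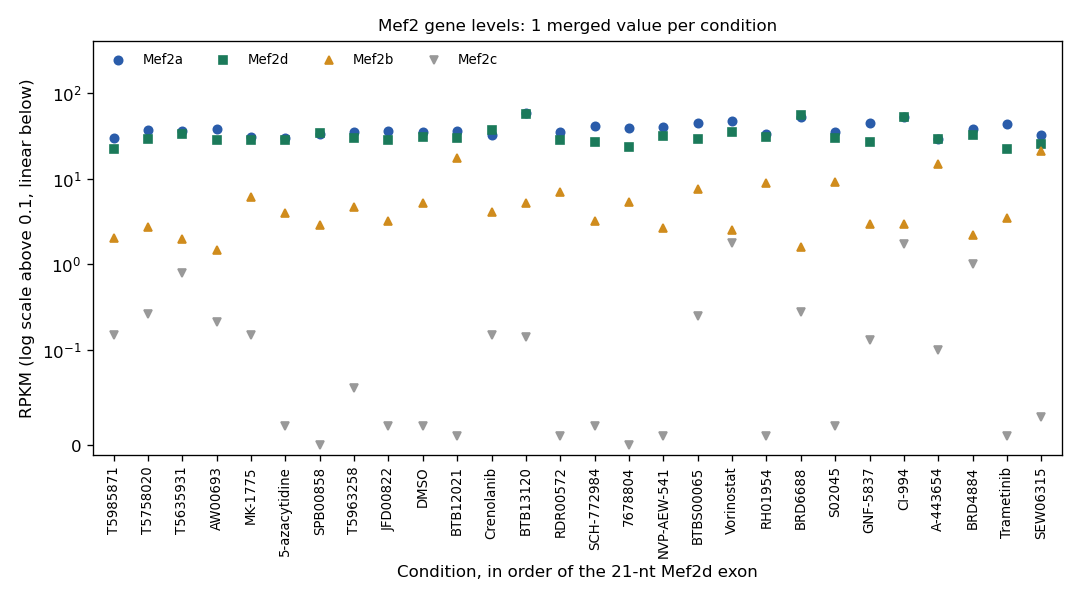
Authors' merged RPKM of the 4 Mef2 genes (vertical axis, log scale above 0.1 and linear below) in each condition, in the order of the 21-nt Mef2d exon. Mef2a and Mef2d stay between 22 and 58.9 RPKM, Mef2b runs from 1.45 to 21.1, and Mef2c stays at or below 1.75.

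Genes whose RPKM followed that of Mef2a over the 28 conditions most closely were Lpp, a focal adhesion protein (r = 0.86), Inpp5a, an inositol polyphosphate phosphatase (0.86), and Kidins220, a scaffold of neurotrophin receptors (0.85). For Mef2d they were Fam65a (0.90), Nckap5l (0.89) and Mlxip, a glucose-sensing transcription factor (0.88), among 11477 genes. Mef2a and Mef2d had an r of 0.63 with each other and a Spearman's rho of 0.29. These are descriptions over conditions that share 1 control and 1 scaling.

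Regulators that bind or modify MEF2 proteins were described by list. Of 22 such genes, 492 gene and compound pairs were above 5 RPKM, with 10 past 2-fold higher (2.03%) and 15 lower (3.05%), beside 2.68% and 3.86% over all genes. Centred on the median gene, 15 were higher and 7 lower. Hdac9, a class IIa deacetylase, was higher in 4 compounds and lower in 5 (1.73 to 26.8 RPKM, 5.89 in DMSO). Hdac5 was higher in 3 (up to 35.6, 13.9 in DMSO), and Carm1, an arginine methyltransferase and coactivator, was lower in 3. In T5985871, Mapk7, the ERK5 kinase that activates MEF2 proteins, was at 84.8 against 21.1 RPKM in DMSO. The calcineurin subunit Ppp3cb was at 27.3 against 74.8, and Cdk5, a kinase that phosphorylates MEF2 proteins, at 4.2 against 11.6. In SEW06315, none of the 22 was past 2-fold, with Hdac4 at 7.8 against 5.27, Hdac5 at 9.66 against 13.9 and Cdk5 at 8.62.

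Of 18 known MEF2 target genes, 4 were above 5 RPKM in DMSO, and the muscle targets Ckm, Myog, Hrc, Smpx and Xirp1 stayed at or below 0.27 RPKM in all conditions. Other muscle targets reached higher values, with Des up to 4.92 RPKM (0.14 in DMSO), Slc2a4 up to 2.87 (0.03) and Hspb7 up to 1.07 (0.02). Of 123 pairs above 5 RPKM, 12 were past 2-fold higher and 3 lower. Of the higher pairs, 6 were of Klf4 and 3 of Arc, which are under 5 RPKM in DMSO and entered only in compounds where they were higher, so the split between higher and lower follows from the minimum and is not set against other genes. The immediate-early gene Arc was at 29.4 RPKM in T5985871 against 4.55 in DMSO, and Klf4 at 10.9 against 1.99. Homer1, a postsynaptic scaffold, was at 10.6 against 30.8 in the same compound. In SEW06315 no target was past 2-fold, with Jun at 18 against 15.9 and Nr4a1 at 5.74 against 6.21.

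Of 17 regulators of microexons and neuronal splicing, 405 pairs gave 5 higher (1.23%) and 16 lower (3.95%), beside 2.68% and 3.86% over all genes. Centred on the median gene, 7 were higher and 6 lower. Srrm4, the main activator of neuronal microexons, was at 10.4 RPKM in DMSO, 3.34 in T5985871 and 5.93 in AW00693. Its other values in the compounds called lower for the 21-nt exon were 7.51 in T5635931, 8.02 in T5758020 and 7.71 in MK-1775. In the compounds below the DMSO libraries without a call, it was at 13.4 in SPB00858, 10.2 in T5963258, 8.22 in JFD00822 and 7.2 in 5-azacytidine. Srrm4 was at 19.6 in CI-994, the highest value, 17 in BTB13120 and 16.4 in GNF-5837.

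Srrm3, its paralogue, was at 18.5 RPKM in DMSO, 6.56 in T5985871, 7.39 in AW00693, 11.5 in T5635931, 11.2 in T5758020 and 16.7 in MK-1775. Rbm38, an RNA-binding protein gene induced by p53, was at 40.6 in DMSO, 271 in T5985871, 160 in AW00693, 149 in T5635931 and 79.1 in T5758020, and at 36.3 in MK-1775. In SEW06315, highest for the exon, Srrm4 was at 12.3, Srrm3 at 15.8, Rbm38 at 26.1, Nova1 at 15.8 against 21.2 and Rnps1 at 86.5 against 110. The part of these levels in the inclusion of the exon was not tested.

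The cells carried the markers of neuroblastoma. Of 15 marker genes 14 were above 5 RPKM in DMSO, and their summed level was 1816.7 RPKM, with 1183.0 (MK-1775) to 2645.5 (CI-994) over compounds. In T5985871, Gata2 was at 140 against 47.9, Gata3 at 18.4 against 7.34 and Mycn at 23.8 against 10.9. In SEW06315, Dbh was at 3.74 against 11.4, Chgb at 177 against 325 and Phox2a at 47 against 78.9.

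Of 8 skeletal muscle markers only Myh3 was above 5 RPKM in DMSO (28; 37 in T5985871 and 29.1 in SEW06315), and the defining Myod1 and Myf5 were listed at 0 there. The summed level of the list was 28.6 in DMSO and 23.5 to 56.7 over compounds. The 6 fibroblast markers summed to 0.6 RPKM in DMSO and to 0.3 to 23.4 over compounds. The sum was highest in CI-994 (23.4), BRD4884 (13.2), Vorinostat (12.1) and BRD6688 (7.0), where Mef2c was also higher. Col1a1 reached 11.7 and Pdgfra 9.99 RPKM, while Col1a2, Col3a1, Dcn and Lum stayed at or below 1.93 in all compounds. The 4 immune markers summed to 0.6 and to 0.2 to 5.3, with Cd68 at 5.2 in T5985871 against 0.56. The part of these markers in the Mef2 results was not tested.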

How the data were processed

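PolyA RNA of N2A cells was sequenced in 34 libraries (TruSeq RNA v2 kit, which does not mark strand). The authors ran vast-tools 2.1 on mm9 and deposited, per exon and library, a percent spliced in with corrected counts of inclusion and exclusion reads. The authors also deposited an expression table with RPKM values merged per condition (1 value each, no counts), which the authors made with Salmon, tximport and edgeR. Salmon is version 0.10.2 in the submitters' processing notes and another in the methods. Columns with the authors' fold changes, p-values, FDR values, PSI changes and calls were not used, and 0 columns belonged to other samples.

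Exons had to pass vast-tools coverage and junction balance (balance is not scored for some microexons) in at least 17 of 34 libraries to be described, and in at least 1 of 2 libraries of a compound and 2 of 3 of DMSO to be tested. The call rule of the study (10 PSI, posterior 0.95) was rebuilt with 2000 beta draws from the deposited counts of reads. limma 3.58.1 (R 4.3.3) was run with trend on the logit of inclusion (0.5 read added) and on log2 of inclusion reads scaled to a total of 1000000 (RPM; 0.5 added, genes of at least 1 RPM), in a one-way fit of all 34 libraries, with Benjamini-Hochberg adjustment per compound. RPKM ratios took a pseudocount of 0.5, and 2-fold with over 5 RPKM counted as changed. Inclusion reads were summed over all exon events of a gene. Identities came from a global alignment (biopython 1.88).

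Deviations of libraries with the same letter, A or B, had an r from -0.01 to 0.01 for exons and from -0.22 to 0.05 for levels, over 10 pairs of groups. No shared deviation was seen, but counting error in the exons can hide one, so whether the letters pair the libraries remained unknown. The call rule and the limma fits were tested on simulated data, and the other statistics were not. In the limma test for exons the simulated shift was larger than any change reported for the 21-nt exon. Members and gene lists were chosen with earlier results of these data known. Named non-members were the 3 genes of each list with the largest ratio in the compounds with the lowest (T5985871) and highest (SEW06315) 21-nt exon, the 5 most and 5 least alike microexons, the 3 genes most alike to Mef2a and Mef2d, and Srrm3, Srrm4 and Rbm38. Hdac9, Hdac5, Carm1 and the muscle targets at low level were named after their values were seen. One target gene of that rule and the sequence of one exon are not reported here. The alternatives tried were another minimum change, filter, pseudocount, scale and scaling, each library left out and the letters as a block.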

Additional observations from a re-analysis of the deposited data

How the results depend on the processing

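Of the recomputed counts that answer a comparison, 199 stayed within 1.5 times the reported count and 29 did not, and of the values of single exons and genes 550 kept their call, 56 lost it, 21 moved and 4 reversed. The exceptions follow, and their cause was not tested. With 15 PSI as the minimum change, the Mef2 exon pairs fell to 2 higher and 7 lower. With at least 30 reads for introns, introns and splice sites together had 2 higher and 2 lower pairs. No called intron could be tested, and this minimum was not applied to splice sites. Without a filter on RPKM, Mef2c was past 2-fold higher in 4 compounds and the MEF2 targets in 24 pairs, and over 1 RPKM in 3 compounds and 22 pairs. Centred on the median gene, RPKM gave Mef2a higher in 1 compound, Mef2d higher in 2, Mef2b lower in 3, the MEF2 regulators lower in 7 pairs and the microexon regulators lower in 6. On the PSI scale limma called the 21-nt exon higher in 7 compounds and lower in 8, without a share over all exons beside it. Leaving out 1 library gave 0 to 1 compounds lower for this exon, 0 to 2 lower for the Mef2a level, and 4 to 8 higher and 0 to 3 lower for the Mef2d level. The calls for Mef2d in BRD4884 and Mef2a in Trametinib were also lost with the median gene set to 0 (limma adjusted p = 0.203 and 0.0521) and without a filter on low genes (0.12 and 0.139).

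The letters A and B as a replicate block, over the DMSO and HDAC inhibitor libraries that carry them, left 0 calls of the 21-nt exon with limma. The Mef2d level in BRD4884 had a limma adjusted p of 0.0697 with the block and 0.0677 in the same libraries without it, a fit added after seeing the data. With each library set against the DMSO library of its letter, 3 Mef2 exon pairs of the HDAC inhibitors were higher and 1 lower, and the 24-nt Mef2a exon in BRD6688 was not called. Within the activators alone, the likeness to the 21-nt exon reversed for Dennd1a (0.42), Zfp524 (0.19), Ruvbl2 (0.41) and 2310021P13Rik (0.44). With 1 library for 23 compounds and about 200 to 600 reads over the 21-nt exon, small differences in it were not detectable at this depth.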
